A study of Homo sapiens with 9 samples.

Results

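ETS family transcription factors were followed as 10 genes, ETS1, ETS2, FLI1, ELF1, ELF2, ELF4, SPI1, ETV6, ELK3 and GABPA, chosen by gene symbol from a table of 60656 genes. Each symbol matched 1 row. Of the 10 genes, 9 had counts and ETS2 was listed at 0 in all 9 libraries. The family shares the ETS domain, a winged helix-turn-helix DNA-binding fold that reads sites built around a GGAA core, and members differ in their partners and in whether they activate or repress. ETS1 and FLI1 act in lymphoid development, SPI1 encodes PU.1, a regulator of B-cell and myeloid genes, and ETV6 is a repressor that is often rearranged in leukemia. GABPA binds DNA for the GABP complex, which serves many mitochondrial and housekeeping genes. Several ETS proteins, ELK3 and ETS1 among them, are substrates of ERK, one of the kinases that antigen receptor signaling activates. BCL10 is a signaling adaptor that works upstream of NF-kB.

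RNA was measured in RIVA, a human lymphoma line of the activated B-cell-like (ABC) kind of DLBCL, diffuse large B-cell lymphoma. All 3 groups carried a doxycycline-inducible lentiviral plvx-Tetone construct and all received doxycycline for 24 h, at 200 ng/mL in the treatment protocol (the sample characteristics write the same figure per µL). The vector group had the empty construct and is labelled BCL10 wild type, the S136X group expressed a truncated BCL10, and the R58Q group expressed a BCL10 missense mutant. Each group had 3 libraries. The cells were selected with puromycin after infection, no deletion of endogenous BCL10 is described for RIVA, no group expressed an added wild-type BCL10, and whether a group was 1 clone or a pool is not given in the sources used here. The study asked which gene-expression programs the mutants set in motion, transcription factors included.

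Total counts were between 28047713 and 33122267 per library. BCL10, the check of the construct, whose counts join the construct and the endogenous gene, rose by 3.75 in S136X and 3.44 in R58Q cells on the log2 scale (adjusted p = 2.6e-05 and 1.76e-05, edgeR). The B-cell markers CD79A, CD79B, MS4A1 and PAX5 each had at least 10 counts in every library, with a summed level of 2450 to 2710 CPM in the vector libraries, 2260 to 2720 in S136X and 2150 to 2510 in R58Q cells. Of the T-cell markers only CD8A reached 10 counts in every library, the T-cell sum was 2.77 to 6.65 CPM over all libraries, the myeloid sum was 0.308 to 0.62 CPM, and of the erythroid and megakaryocyte markers GATA1, HBB and PF4 were at 0 and ITGA2B had 3 to 13 counts per library. Column names carry 2 dates, one for vector and S136X and a later one for R58Q, so that date and R58Q cannot be told apart in any comparison with R58Q. In bulk RNA, fewer cells of a kind and less RNA per cell cannot be told apart either.

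The sequences below show what an ETS recognition core looks like beside the start of 3 of these genes: ETV6, which fell in both mutants, ELF4, which rose in both, and GABPA, which passed in neither. Promoter windows from RefSeq (GRCh38.p14, 250 bases before to 50 after a start) matched 7 of the 10 genes, and ETS1, FLI1 and SPI1 had none. GGAA, or TTCC where the core lies on the other strand, is in capitals. The windows are chr12:11649424-11649723 on the plus strand for ETV6, chrX:130110448-130110747 on the minus strand for ELF4 and chr21:25734722-25735021 on the plus strand for GABPA.
ETV6: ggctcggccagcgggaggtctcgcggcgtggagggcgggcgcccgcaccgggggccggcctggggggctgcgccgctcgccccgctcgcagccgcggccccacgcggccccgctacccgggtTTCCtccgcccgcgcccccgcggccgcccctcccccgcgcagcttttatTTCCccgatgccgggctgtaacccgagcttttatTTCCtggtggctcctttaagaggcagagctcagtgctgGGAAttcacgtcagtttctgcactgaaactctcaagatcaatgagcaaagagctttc
ELF4: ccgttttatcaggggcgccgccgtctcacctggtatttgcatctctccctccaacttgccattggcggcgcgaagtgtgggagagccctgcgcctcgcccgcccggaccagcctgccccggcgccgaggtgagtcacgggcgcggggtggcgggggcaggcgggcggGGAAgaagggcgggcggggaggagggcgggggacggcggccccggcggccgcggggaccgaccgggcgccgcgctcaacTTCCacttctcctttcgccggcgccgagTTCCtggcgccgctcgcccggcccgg
GABPA: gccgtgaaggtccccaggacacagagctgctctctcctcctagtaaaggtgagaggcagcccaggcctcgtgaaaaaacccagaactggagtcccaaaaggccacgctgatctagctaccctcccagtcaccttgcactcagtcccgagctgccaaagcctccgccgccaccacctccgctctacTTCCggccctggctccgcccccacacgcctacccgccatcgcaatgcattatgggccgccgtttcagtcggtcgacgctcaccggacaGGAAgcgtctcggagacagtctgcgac
The ETV6 window held 4 cores, the ELF4 window 3 and the GABPA window 2. The core was in 6 of the 7 windows, all but that of ELF2, and in 95.4% of 34943 RefSeq windows of the same length (median 3 per window), so that its presence does not set these promoters apart. The longer word CCGGAA, searched on both strands and containing the core, was in 1 of the 7 windows, that of GABPA, against 17.2% of all windows. A match is a stretch of letters and not a measured site. The RefSeq start lies 219 bases from the start the counts table gives for ELF4 and 402 bases from that for GABPA, and the 2 starts are the same for ETV6.

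Per kilobase of exon, 3 ETS genes made up most of the family's mRNA in vector cells. The FPKM level was 89.6 ± 4.05 (SD, n = 3) for ELF1, 86.3 ± 7.56 for ETS1 and 79.8 ± 5.8 for SPIB, the gene of the PU.1 relative Spi-B, which is not one of the 10. Neighbours among these 3 differ by less than the SD of ETS1. The rest of the 10 followed at 26.9 ± 1.15 FPKM for ETV6, 16.8 ± 0.558 for ELF4, 15.7 ± 0.521 for SPI1 and 13.1 ± 0.275 for FLI1. GABPA was at 9.92 ± 0.444, ELF2 at 8.01 ± 0.909 and ELK3 at 1.45 ± 0.267 FPKM. ELF4 and SPI1, the closest neighbours among these, differed by more than either SD. These SDs measure the spread between libraries and not the choice of exon length, on which the order of genes also rests. The union length used was 4316 bases for ELF4 and 2069 for SPI1, against 4165 and 1403 in the longest transcript. Another choice of length could change the order, here and in the mutants.

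In both mutants SPIB had the highest mean and ETS1 dropped behind ELF1 by more than its SD. ETS1 fell to 57 ± 8.94 FPKM in S136X and 55.7 ± 7.43 in R58Q cells, while SPIB had 87.2 ± 5.43 and 90.1 ± 9.21 FPKM, a difference from vector that passed in neither comparison. Summed over the 28 ETS genes of the genome that were followed, the level was 404 ± 17.7 FPKM in vector, 360.9 ± 14.5 in S136X and 356.1 ± 10.2 in R58Q cells. The share of ETS1 in that sum was 21.3% in vector, 15.7% in S136X and 15.6% in R58Q cells. The share of ETV6 was 6.66%, 5.02% and 4.51% in the same order, and that of ELF4 was 4.15%, 5.79% and 5.98%. Shares are tied to each other, so these give composition and were not tested.

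**Figure D1:**
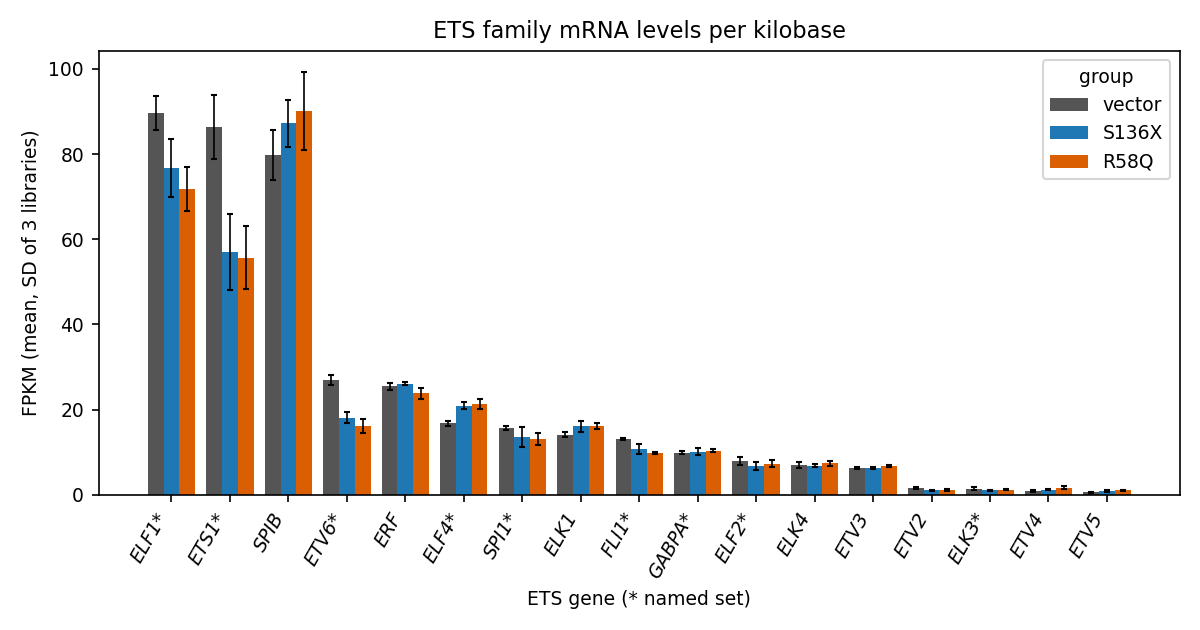
Level per kilobase of exon (FPKM) of the ETS genes with at least 0.5 FPKM in vector cells, as the mean of 3 libraries with the SD, in vector (grey), S136X (blue) and R58Q (orange) cells, with the 10 named genes starred. ETS1 stands at 86.3 FPKM in vector against 57 and 55.7 in the mutants, beside SPIB at 79.8, 87.2 and 90.1.

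A gene is said to pass, rise or fall at a Benjamini-Hochberg adjusted p under 0.05 in edgeR's quasi-likelihood test over all genes tested, and to be called where it also changed at least 1.5-fold. Levels within a gene are CPM, read counts brought to 1 library size by TMM. In S136X cells 1 of the 9 measured genes rose and 2 fell, beside 6.03% and 4.1% of all 15530 genes tested. In R58Q cells 1 rose and 4 fell, beside 12.3% and 8.76% of 15435 genes. None of the 9 was called higher in either mutant, beside 2.05% of all genes in S136X and 4.09% in R58Q cells. Called lower were 1 gene in S136X cells (ETS1) and 2 in R58Q cells (ETS1 and ETV6), beside 1.82% and 3.54%. The median log2 fold change of the 9 was -0.26 in S136X and -0.29 in R58Q cells, against -0.02 and -0.03 over all genes tested. The 3 mutant libraries did not overlap the 3 vector libraries for 6 of 9 genes in each mutant, beside 31.3% of all genes in S136X and 40.3% in R58Q cells. Both comparisons use the same vector libraries, so they are not independent of each other. With total counts as the only scaling, 1 of the 9 was higher and 4 were lower in S136X cells, and over all genes it moved the share of passing genes that were higher from 59.5% to 42.6% in S136X and from 58.3% to 43.1% in R58Q cells.

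The replicate numbers were taken to pair the libraries, from these counts and not from a label. A fit with the number as a block passed more genes. With the block, 1 of the 9 rose and 6 fell in S136X cells, beside 12.9% and 11.8% of all genes, the added genes being FLI1, ELF1, ELF2 and ELK3. In R58Q cells the block fit gave 1 higher and 5 lower, beside 18.2% and 17%, the added gene being SPI1. Without vector replicate 2 only ETV6 passed in S136X cells, and without S136X replicate 2 there were 5 passing genes, while the number passing over all genes went from 1574 to 485 and to 1157.

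**Figure D2:**
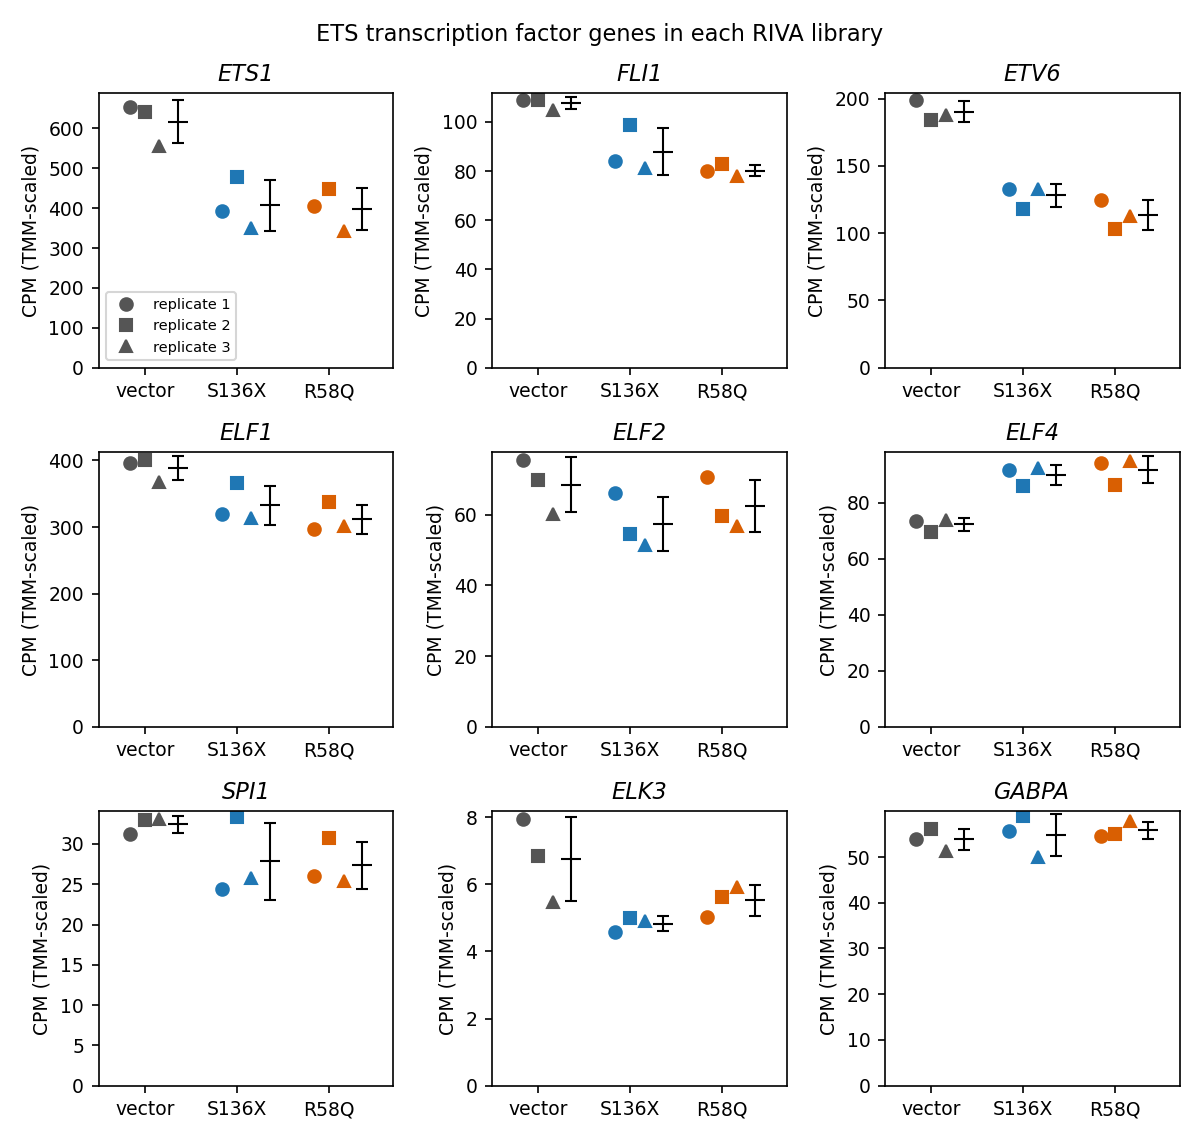
TMM-scaled CPM of the 9 measured genes in each library, with the mean and SD of the 3 libraries in black and a marker shape for each replicate number. The 3 vector libraries lie above all mutant libraries for ETS1, FLI1, ETV6 and ELF1 and below them for ELF4.

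ETS1 (ENSG00000134954.14, chr11:128458761-128587558, minus strand of GRCh38) is the founding member of the family and restrains plasma cell differentiation in B cells. It had 22070, 20959 and 18858 counts in vector replicates 1 to 3, which are 655, 641 and 555 CPM. S136X cells had 394, 477 and 351 CPM, and R58Q cells had 405, 447 and 342 CPM. All 6 mutant libraries lay below all 3 vector libraries, and replicate 2 was the highest in each mutant. ETS1 thus differed from vector by a log2 fold change of -0.60 in S136X (SE 0.115, adjusted p = 0.015, edgeR) and -0.63 in R58Q cells (SE 0.108, adjusted p = 0.00595), or 33.9% and 35.6% less than in vector. The S136X change did not pass without vector replicate 2 (adjusted p = 0.075, edgeR) or without S136X replicate 3 (adjusted p = 0.0525), and it was under 1.5-fold, at -0.54 and -0.57, without vector replicate 1 or S136X replicate 1. The R58Q change passed in all 6 such fits and was under 1.5-fold, at -0.58 and -0.53, without vector replicate 1 or R58Q replicate 3.

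FLI1 (ENSG00000151702.17, chr11:128686535-128813267, plus strand) is the neighbour of ETS1, 98.98 kb away with no protein-coding gene between them, and is known for roles in megakaryocytes and B-cell development. It had 109, 109 and 105 CPM in the vector libraries, 84, 98.7 and 81.2 in S136X and 79.9, 82.8 and 78 in R58Q cells. No mutant library reached the lowest vector library, and S136X replicate 2 came nearest. The log2 fold change was -0.42 in R58Q cells (SE 0.054, adjusted p = 0.00191, edgeR). In S136X cells it was -0.29 (SE 0.0788) and did not pass (adjusted p = 0.0536, edgeR, and 0.0058 with the replicate block). Under upper-quartile scaling, total counts only, no filter, 10 counts in each library, all 9 libraries in one fit (edgeR) or DESeq2 it passed, with adjusted p from 0.017 to 0.0469. With limma-voom it did not pass, nor in 5 of the 6 edgeR fits that left out a library.

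ETV6 (ENSG00000139083.11, chr12:11649674-11895377, plus strand), the repressor whose promoter is printed above, had 199, 184 and 188 CPM in vector cells. It had 133, 118 and 133 CPM in S136X and 125, 103 and 113 CPM in R58Q cells. The groups did not overlap, and the lowest library of each mutant was replicate 2. ETV6 fell with a log2 fold change of -0.57 in S136X (SE 0.0691, adjusted p = 0.00214, edgeR) and -0.75 in R58Q cells (SE 0.0802, adjusted p = 0.000844). The S136X change is just under 1.5-fold, 32.9% less than vector, and that in R58Q is past it, 40.4% less. Leaving out any 1 library left ETV6 past the threshold in both mutants, with adjusted p up to 0.0141 in S136X and 0.00674 in R58Q cells (edgeR).

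ELF1 (ENSG00000120690.16, chr13:40931924-41061440, minus strand) encodes an activator of lymphoid genes. It had 396, 401 and 368 CPM in the vector libraries, 319, 366 and 313 in S136X and 297, 337 and 301 in R58Q cells. The groups did not overlap, with the highest S136X library, replicate 2, just below the lowest vector library. The log2 fold change was -0.32 in R58Q cells (SE 0.0714, adjusted p = 0.0171, edgeR), which did not pass without vector replicate 2, R58Q replicate 1 or R58Q replicate 3 (adjusted p = 0.0873, 0.0587 and 0.0678). In S136X cells it was -0.22 (SE 0.0766, adjusted p = 0.101, edgeR, and 0.00938 with the block).

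ELF4 (ENSG00000102034.17, chrX:130063955-130110716, minus strand), also called MEF, is an activator with roles in quiescence and innate immune genes. It was the one gene of the set that rose. Vector libraries had 73.5, 69.6 and 73.9 CPM, S136X libraries 91.9, 85.9 and 92.4, and R58Q libraries 94.4, 86.3 and 94.8. All mutant libraries lay above all vector libraries, and replicate 2 was the lowest of every group. ELF4 rose with a log2 fold change of 0.32 in S136X (SE 0.0598, adjusted p = 0.0143, edgeR) and 0.34 in R58Q cells (SE 0.0619, adjusted p = 0.00765), or 24.5% and 26.8% more. Without vector replicate 2 the S136X change did not pass (adjusted p = 0.0805, edgeR).

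ELF2 (ENSG00000109381.20, chr4:139028112-139177218, minus strand), whose isoforms can activate or repress, had 75.5, 69.9 and 60.2 CPM in the vector libraries, 66, 54.6 and 51.4 in S136X and 70.7, 59.5 and 56.8 in R58Q cells. Within every group replicate 1 was highest and replicate 3 lowest, and the groups overlapped. The log2 fold change was -0.26 in S136X (SE 0.112, adjusted p = 0.185, edgeR, and 0.00814 with the block) and -0.14 in R58Q cells (SE 0.107, adjusted p = 0.385). NOCT overlaps ELF2 on the opposite strand with 32.6% as many counts, had a log2 fold change of 0.48 in S136X cells, and 12.3% of the 31-base words of ELF2 occur in other genes. Whether reads were counted by strand is not given in the sources used here, so part of the ELF2 count is uncertain.

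SPI1 (ENSG00000066336.12, chr11:47354860-47378547, minus strand) had 31.2, 33 and 33.1 CPM in the vector libraries, 24.4, 33.3 and 25.8 in S136X and 26, 30.7 and 25.4 in R58Q cells. In S136X cells replicate 2 was as high as the vector libraries and the other 2 were below them, and in R58Q cells all 3 were below. For SPI1 the log2 fold change was -0.22 in S136X (SE 0.115, adjusted p = 0.258, edgeR) and -0.25 in R58Q cells (SE 0.0875, adjusted p = 0.0778, and 0.0227 with the block). Without S136X replicate 2 the S136X change passed (log2 fold change -0.36, adjusted p = 0.0435, edgeR).

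ELK3 (ENSG00000111145.8, chr12:96194375-96269824, plus strand), a ternary complex factor that works with SRF and is regulated by ERK, was the lowest of the 9. It had 7.95, 6.85 and 5.47 CPM in the vector libraries, 4.58, 4.99 and 4.91 in S136X and 5.02, 5.61 and 5.93 in R58Q cells. The S136X libraries lay below the vector libraries, which themselves spread widely, and the R58Q libraries overlapped them. For ELK3 the log2 fold change was -0.48 in S136X (SE 0.163, adjusted p = 0.096, edgeR, and 0.0405 with the block) and -0.29 in R58Q cells (SE 0.163, adjusted p = 0.235).

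GABPA (ENSG00000154727.10, chr21:25734570-25772460, plus strand) had 53.9, 56.2 and 51.4 CPM in the vector libraries, 55.7, 59 and 49.9 in S136X and 54.5, 55.1 and 57.9 in R58Q cells. The groups overlapped throughout. The log2 fold change was 0.03 in S136X cells, with a 95% interval of -0.15 to 0.20 and adjusted p = 0.853 (edgeR). In R58Q cells it was 0.05 with an interval of -0.09 to 0.19 (adjusted p = 0.591, edgeR). Its sign turned with upper-quartile scaling and with total counts only. ATP5PF overlaps GABPA on the opposite strand with 149% as many counts, and 19.6% of the words of GABPA occur in other genes, most often its pseudogene GABPAP.

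ETS2 (ENSG00000157557.13, chr21:38805183-38824955, plus strand), the close relative of ETS1, had 0 counts in all 9 libraries, which allows up to 3 counts or 0.0883 to 0.105 CPM per library. Its neighbour ERG, 143.4 kb away with no protein-coding gene between, was also at 0. The stretch was looked at after these values were seen. Its flanks are DYRK1A, 1279 kb to the left of ETS2, and PSMG1, 349.8 kb to the right. They were picked as the nearest protein-coding genes with at least 10 counts in every library. By that choice no protein-coding gene between them reaches this level. Of the 30 genes listed between them, ETS2 and ERG included, 28 were at 0 in all libraries and the highest count of any was 4. Of all 60656 genes, 31522 had any counts. DYRK1A had 3158 to 4455 counts and PSMG1 941 to 1231. The limits cover counting error only.

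**Figure D3:**
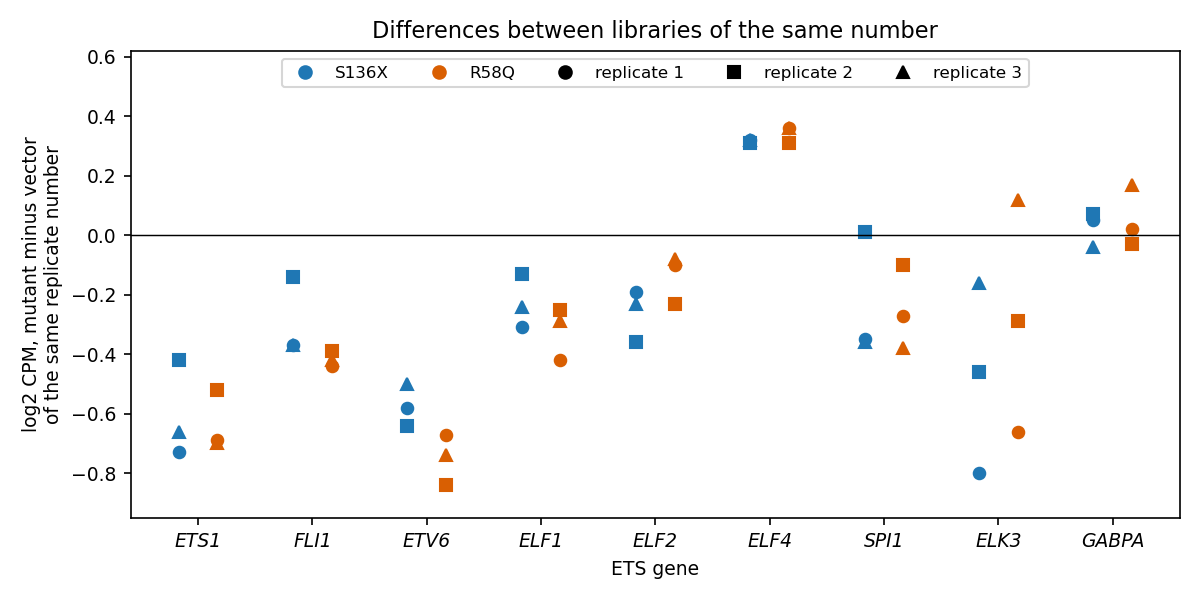
Difference in log2 CPM between each mutant library and the vector library of the same replicate number, for the 9 measured genes (blue S136X, orange R58Q, a marker shape for each number). ETS1, FLI1, ETV6, ELF1 and ELF2 lie below 0 and ELF4 above 0 in all 6 differences, while SPI1, ELK3 and GABPA lie on both sides.

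Taken number by number, the changes differed in steadiness. ELF4 was higher by 0.31 to 0.32 on the log2 scale in S136X and by 0.31 to 0.36 in R58Q cells than the vector library of the same number. ETV6 differed by -0.64 to -0.50 in S136X and by -0.84 to -0.67 in R58Q cells. ELK3 went from -0.80 to -0.16 in S136X cells and from -0.66 to 0.12 in R58Q cells.

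The mutants were also compared with each other. Between R58Q and S136X, 0 of the 9 genes passed in either direction with edgeR, and 0 with DESeq2 and 0 with limma-voom, beside 0.349% of 15195 genes higher and 0.184% lower. At an unadjusted p under 0.05 the number was 0 as well, with no share of all genes at that threshold given here. None was called at 1.5-fold, beside 0.27% higher and 0.165% lower, and the groups did not overlap for 1 of the 9, ELK3, beside 17% of all genes. The 95% interval of the log2 difference was -0.34 to 0.26 for ETS1, -0.33 to 0.05 for FLI1 and -0.13 to 0.17 for ELF4. A difference of 1.5-fold, 0.585 on the log2 scale, lies outside these intervals and those of the other 6 genes. ETV6 had the lowest of the 9 differences (-0.18, interval -0.38 to 0.02, adjusted p = 0.517, edgeR). With the replicate block ETV6 was lower in R58Q than in S136X cells (adjusted p = 0.00931, edgeR) and was the 1 gene of the 9 that passed, beside 7.84% of all genes higher and 6.71% lower in that fit.

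Of the other 18 ETS genes, those with enough counts for a test were 10 in S136X and 12 in R58Q cells. In S136X cells 0 passed with edgeR, DESeq2 or limma-voom, beside 6.03% of all genes higher and 4.1% lower in edgeR. An unadjusted p under 0.05 was found for 3 (ETV2, ETV4 and ELK1), with no share of all genes at that threshold given here. Of the 10 tested in both mutants, 2 rose in R58Q cells (beside 12.3% of all genes), both past 1.5-fold (beside 4.09%), and 0 fell (beside 8.76%). These were ETV4 and ETV5 of the PEA3 group, whose transcription ERK signaling commonly raises. The fit also passed EHF, an epithelial factor, and ETV3L, a relative of the repressor ETV3, which met the filter on low counts only through R58Q, the group where they are high. Their counts are therefore given below as a description, with no test.

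ETV4 had 2.55, 3.85 and 2.97 CPM in the vector libraries, 4.03, 4.9 and 3.93 in S136X and 6.1, 7.28 and 5.02 in R58Q cells. ETV5 had 2.37, 4.16 and 3.27 CPM in the vector libraries, 4.51, 5.98 and 3.3 in S136X and 6, 7.18 and 5.57 in R58Q cells. R58Q libraries lay above all vector libraries for both. The S136X libraries lay between the other groups for ETV4 and overlapped both for ETV5. In R58Q cells the log2 fold change was 0.97 for ETV4 (SE 0.204, adjusted p = 0.0138, edgeR) and 0.93 for ETV5 (SE 0.214, adjusted p = 0.0187). Without vector replicate 3 neither passed (adjusted p = 0.0514 and 0.0594, edgeR), and ETV5 did not pass without R58Q replicate 2 (0.054). ETV4 lies across DHX8 on the opposite strand, which has far more counts, and ETV5 overlaps DGKG on its own strand with 37.9% as many counts as ETV5.

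EHF and ETV3L were near the detection limit outside R58Q cells. EHF had 0, 6 and 0 counts in vector, 1, 5 and 5 in S136X and 19, 33 and 28 in R58Q cells. ETV3L had 7, 5 and 8 counts in vector, 5, 14 and 12 in S136X and 56, 17 and 40 in R58Q cells. For both, each R58Q library exceeded every library of the other groups, and these differences rest on few counts. Without vector replicate 2 the vector group was at 0 for EHF, so that 0.64 to 1.1 CPM in R58Q cells stand against at most 0.089 CPM, the value of 3 counts, in each remaining vector library. ETV3L lies 8.779 kb from ETV3 and shares 8.89% of its words with other genes, mostly ETV3.

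Between R58Q and S136X 0 of the 12 other ETS genes tested passed with edgeR or limma-voom. Over all genes 0.349% were higher and 0.184% lower in edgeR. EHF, ETV3L and ETV7 are left aside in the R58Q comparisons that follow, because of the filter. None of the rest passed with DESeq2. ETV4 had an unadjusted p under 0.05 in edgeR, with no share of all genes at that threshold given here. With the block ETV4 and ETV5 were higher in R58Q and ERF lower, beside 7.84% of all genes higher and 6.71% lower. ETV7 had 13 to 23 counts in vector, 16 to 21 in S136X and 8 to 10 in R58Q libraries. In comparisons with R58Q it met the filter on low counts only through the other group, where it is high. These counts are therefore a description, with no test. With the block ETV2, an endothelial and blood regulator, also fell in both mutants, beside 11.8% of all genes in S136X and 17% in R58Q cells. Without the block ETV2 had -0.66 in S136X (adjusted p = 0.0595, edgeR) and -0.59 in R58Q cells (adjusted p = 0.0589). ELK1 and SPIB rose in R58Q cells with the block, beside 18.2% of all genes. SPIB had 324 to 370 CPM in the vector libraries, 348 to 392 in S136X and 350 to 428 in R58Q cells, and 30.2% of its words occur in other genes. Without the block the remaining genes tested did not pass against vector. Their log2 fold changes in S136X and R58Q cells were 0.01 and 0.13 for ETV3, -0.24 and -0.38 for ELF3, 0.19 and 0.20 for ELK1, -0.03 and 0.07 for ELK4, and 0.03 and -0.10 for ERF. For ETV7 the value was 0.24 in S136X cells. ERG and ELF5 were at 0, FEV had 1 count in all, SPIC had 2 to 5 counts in R58Q libraries and 0 elsewhere, and ETV1 and SPDEF had at most 9 and 5 counts in any library.

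**Figure D4:**
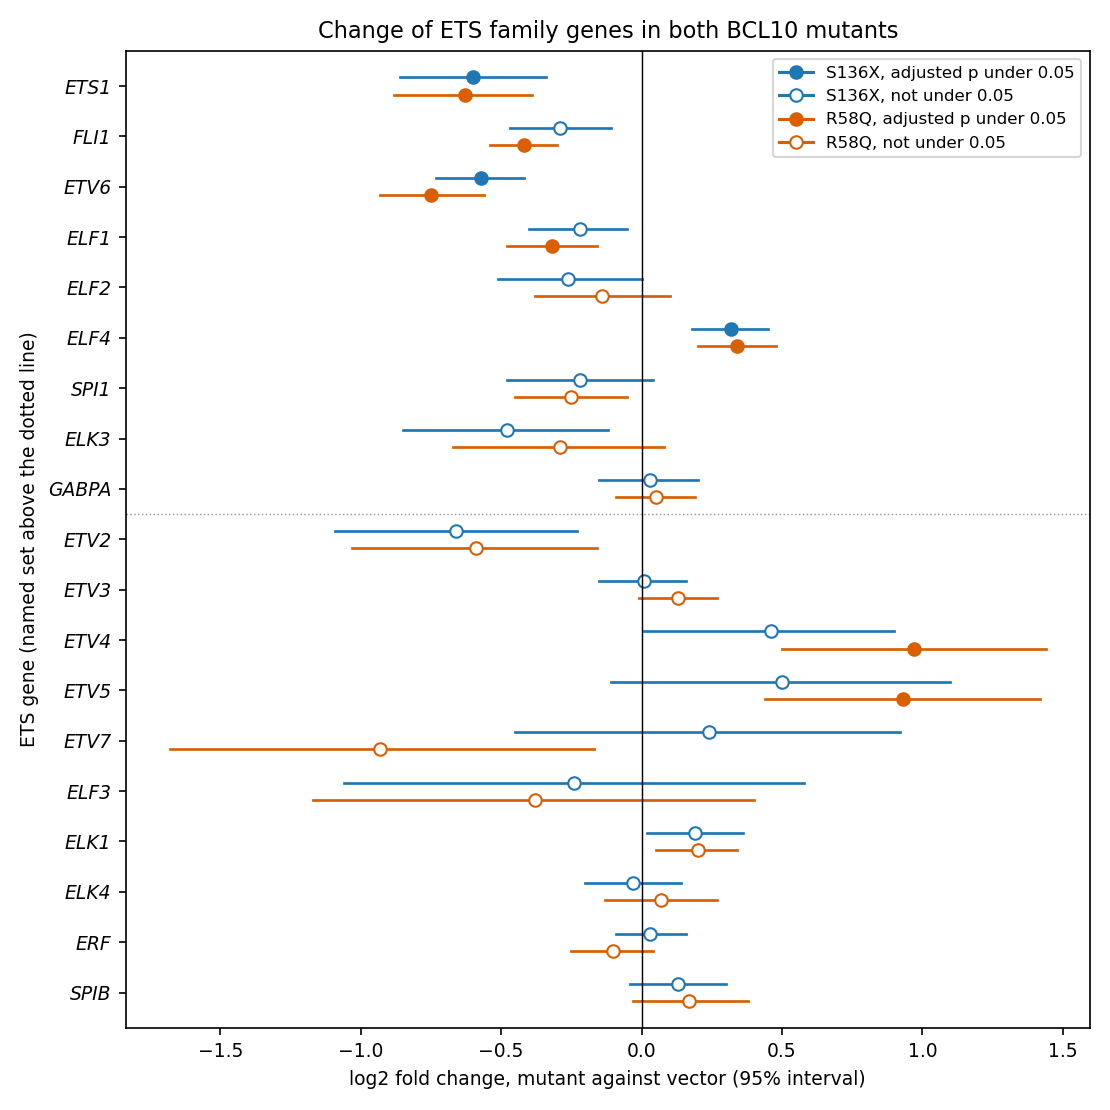
Log2 fold change against vector with its 95% interval for the 9 measured genes (above the dotted line) and the other ETS genes tested in both mutants, in S136X (blue) and R58Q (orange) cells, with filled points at an adjusted p under 0.05. ETS1, ETV6 and ELF4 are filled in both mutants, and ETV4 and ETV5 are filled in R58Q cells, to the right of 0. ETV7 met the filter on low counts in R58Q against vector only through the vector group.

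ETS proteins act with partners, and 17 partner and regulator genes were read next. IRF4, SRF and RUNX3 rose in both mutants, 3 of the 17, while 0 fell in S136X cells and 1, the coactivator gene EP300, fell in R58Q cells. Over all genes 6.03% rose and 4.1% fell in S136X and 12.3% rose and 8.76% fell in R58Q cells. IRF4, the lymphoid factor that binds composite sites together with PU.1 or Spi-B, was the 1 gene past 1.5-fold. Over all genes 2.05% were called higher in S136X and 4.09% in R58Q cells. IRF4 had 717, 690 and 805 CPM in the vector libraries, 1150, 1170 and 1200 in S136X and 1210, 1150 and 1380 in R58Q cells. The mutant libraries lay above all vector libraries, with log2 fold changes of 0.67 (SE 0.0744, adjusted p = 0.00153, edgeR) and 0.76 (SE 0.0932, adjusted p = 0.00157). SRF, which recruits ELK3 and its relatives to DNA, changed by 0.48 in S136X and 0.39 in R58Q cells, and RUNX3, of the family that pairs with ETS1, by 0.46 and 0.49. The medians of the list were -0.00 and 0.05. In S136X cells 5 of the 17 passed with the block, IRF8 and PAX5 being added (beside 12.9% of all genes higher and 11.8% lower). In S136X cells 1 passed without vector replicate 2, S136X replicate 2 or S136X replicate 3. The number passing over all genes went from 1574 to 485, 1157 and 734 in those fits. In R58Q cells 1 passed without vector replicate 2 and 2 without R58Q replicate 2 or 3. There the number passing over all genes went from 3243 to 1322, 2451 and 1767.

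IRF8, the other IRF partner of PU.1, did not pass (0.16 in S136X, adjusted p = 0.346, and 0.26 in R58Q, adjusted p = 0.0632, edgeR, against 0.0345 and 0.00491 with the block). GABPB1 and GABPB2, the partner subunits of GABPA, differed by -0.02 and -0.10 in S136X and by 0.09 and -0.05 in R58Q cells, with no adjusted p under 0.448 (edgeR). Between the mutants 0 of the 17 passed with edgeR, DESeq2 or limma-voom, beside 0.349% of all genes higher and 0.184% lower in edgeR. An unadjusted p under 0.05 was found for 2, with no share of all genes at that threshold given here. With the block 3 passed, EP300, SIN3A and DAXX, all lower in R58Q cells, beside 7.84% of all genes higher and 6.71% lower.

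Of 16 genes known as targets of PU.1 or Spi-B, 15 were tested, and they moved in both directions. In each mutant 4 rose, all past 1.5-fold, CD40, BCL6, CIITA and NFKB1, and 3 fell. Over all genes 2.05% were called higher and 4.1% fell in S136X cells, against 4.09% and 8.76% in R58Q cells. The genes that fell were BLNK and FCER2 in both, CD79B in S136X and CD79A in R58Q cells, of which BLNK, CD79A and CD79B belong to B-cell receptor signaling. Medians were -0.18 for S136X and -0.15 for R58Q. CD40 and NFKB1 are also known as NF-kB target genes, and which factor acted on the list was not tested.

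CD40, the receptor for T-cell help, had 141, 156 and 142 CPM in the vector libraries, 289, 275 and 287 in S136X and 540, 452 and 508 in R58Q cells. The 3 groups did not overlap. Against vector the log2 fold change was 0.96 in S136X (SE 0.0635, adjusted p = 0.000127, edgeR) and 1.77 in R58Q cells (SE 0.0829, adjusted p = 1.96e-05). CIITA, the master activator of MHC class II genes, changed by 1.01 and 1.23, BCL6, the germinal center repressor, by 0.97 and 0.99, and NFKB1 by 0.82 and 1.17. FCER2, which encodes CD23, changed by -0.74 (adjusted p = 0.0154, edgeR) and -0.58 (adjusted p = 0.0283), and the R58Q value did not pass in 4 of the 6 fits that left out a library. With the block 7 of the 15 fell in each mutant, beside 11.8% of all genes in S136X and 17% in R58Q cells. Between the mutants CD40 was the 1 gene that passed, 0.81 higher in R58Q on the log2 scale (SE 0.0729, adjusted p = 0.00634, edgeR), and it did not pass without S136X replicate 3 (adjusted p = 0.0819). Over all genes 0.349% were higher and 0.184% lower in that comparison. With the block 3 were higher in R58Q (CD40, CIITA and NFKB1) and 3 lower (BLNK, CD22 and MS4A1), beside 7.84% and 6.71% of all genes.

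Of 14 GABP target genes 13 were tested. In S136X cells 0 passed with edgeR, 1 with DESeq2 and 0 with limma-voom, beside 6.03% of all genes higher and 4.1% lower in edgeR. An unadjusted p under 0.05 was found for 2, with no share of all genes at that threshold given here. Without vector replicate 1 or S136X replicate 3 there was 1 passing gene. The number passing over all genes went from 1574 to 1410 and to 734 in those fits. In R58Q cells 6 rose and 0 fell, TFAM, COX5A, COX5B, COX7C, TOMM20 and RPL32, with log2 fold changes from 0.25 to 0.32 and none past 1.5-fold, beside 12.3% of all genes higher and 8.76% lower. They serve mitochondrial transcription, cytochrome oxidase, protein import and the ribosome. Medians were 0.08 for S136X and 0.25 for R58Q. The R58Q count was 0 without vector replicate 2 or without vector replicate 3 and 2 without R58Q replicate 1, and 2 with upper-quartile scaling. Over all genes the number passing went from 3243 to 1322, 1730 and 2735 in the 3 fits that left out a library. With the block 10 of the 13 rose in R58Q and 3 in S136X cells, and 0 fell. Over all genes in those fits 18.2% rose and 17% fell in R58Q, and 12.9% and 11.8% in S136X cells. Between the mutants 0 of 13 passed with edgeR, DESeq2 or limma-voom, beside 0.349% of all genes higher and 0.184% lower in edgeR. An unadjusted p under 0.05 was found for 4, with no share of all genes at that threshold given here. With the block 5 passed, all higher in R58Q cells, beside 7.84% of all genes higher and 6.71% lower.

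**Figure D5:**
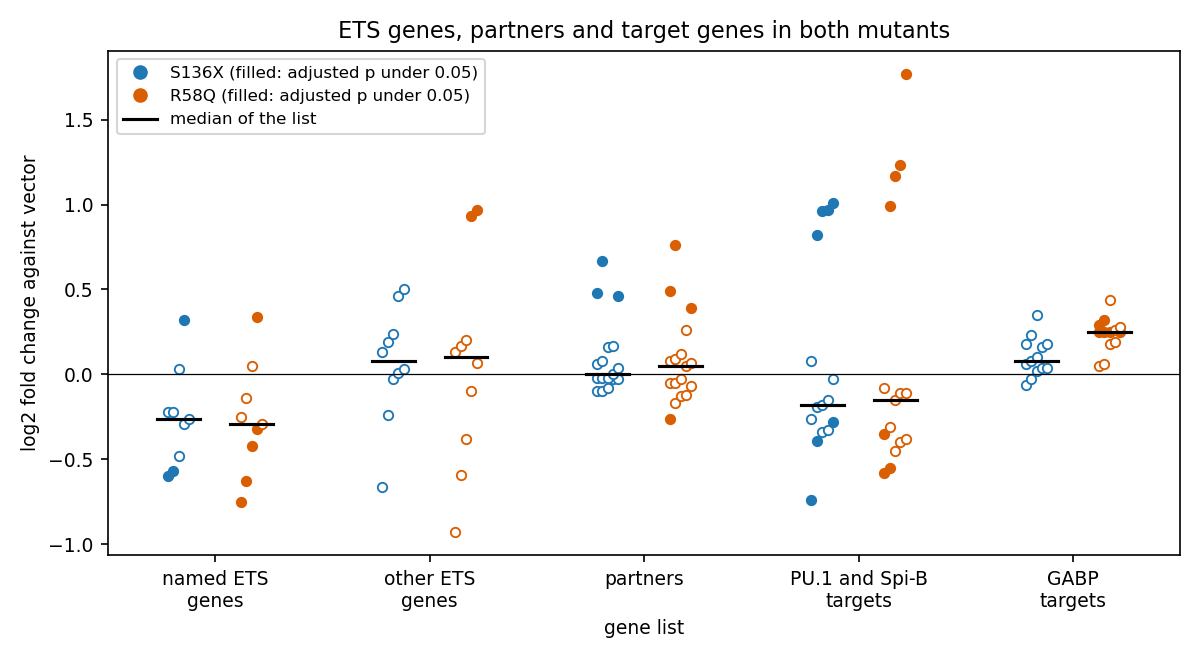
Log2 fold change against vector of each gene tested in both mutants, for the 10 named ETS genes, the other ETS genes and the partner and target lists, in S136X (blue) and R58Q (orange) cells, with filled points at an adjusted p under 0.05 and a black bar at the median. The named ETS genes have medians of -0.26 and -0.29, the PU.1 and Spi-B targets spread from -0.74 to 1.77, and the GABP targets lie close together.

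ETS1 was the member called in both mutants, and the genes whose log2 CPM most resembled its pattern over the 9 libraries were sought among 15859 others. They were ALDH5A1, TLE5 and PDLIM1, each with Pearson r = 0.992, as a description without a test. ALDH5A1 had 685 ± 57.3 CPM in the vector libraries, 414 ± 58.9 in S136X and 425 ± 68 in R58Q cells (SD, n = 3). TLE5 had 221 ± 12.4, 179 ± 16.5 and 177 ± 11.3 CPM and PDLIM1 596 ± 50.7, 426 ± 56.8 and 422 ± 64.9 CPM in the same order. The points share their libraries and their groups.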

How the data were processed

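RIVA cells were sequenced as poly(A)-selected RNA (single-end reads) in 9 libraries, 3 per group. The authors deposited 1 table of read counts per gene and, beside them, a normalized signal that equals the counts times 1 constant per library, which was checked and not used further. The submitters' processing notes name cutadapt, STAR, Picard and hg38 without versions, and the counting program and its strand setting are not given in the sources used here. Of the gene identifiers 96.3% are in GENCODE 29, whose union exon lengths gave FPKM, and 0 columns of per-sample values lacked a sample. 

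Counts were analysed with edgeR 4.0.16 in R 4.3.3, each pair of groups on its 6 libraries, with filterByExpr (minimum count 10, minimum total 15), TMM and the quasi-likelihood F test, adjusted by Benjamini-Hochberg over all genes tested. The standard error is the log2 fold change over the root of F. Replicates are called biologic in the study, with no word on separate cultures, and p-values measure the spread between these libraries. Replicate pairs differed by 7.91 to 25.6 chi-square units per degree of freedom, which is more than counting error. Each library was counted as 1 sample, though this spread does not show that the cultures were separate. The fits were tested on simulated data.

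The labels number replicates 1 to 3 in each group. Deviations from the group means correlated at 0.143 to 0.626 (median 0.425) in all 9 pairs of the same number, against -0.459 to 0.169 (median -0.251) for different numbers. The 2 ranges overlap. The 3 deviations of a gene in a group sum to 0. Values for different numbers are therefore pulled below 0 where those for the same number are above 0, and are not a separate contrast. Since all 9 were over 0.1, the numbers were taken to pair the libraries. The pairing comes from the data, not from a label. R58Q columns carry a later date than vector and S136X columns of the same number, and what the numbers share was not tested.

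The 10 genes and all lists were chosen with earlier results of these data known. Lists (18 other ETS genes, 17 partners, 16 PU.1 or Spi-B targets, 14 GABP targets and cell markers) were written by hand, and some genes of these lists are not reported here. Genes named were all 10, every other ETS gene tested, list genes called in a comparison (at most 6 per list) with NFKB1, GABPB1, GABPB2, IRF4 and IRF8, BCL10, and the 3 genes most like a member called in both mutants. List genes that passed at under 1.5-fold are named as examples chosen after their values were seen. Alternatives were the replicate block, leaving out each library, a joint fit of all 9 libraries, DESeq2 1.42.0, limma-voom (limma 3.58.1), scaling by upper quartiles or by total counts, dropping the filter, asking for 10 counts in each library, an adjusted p under 0.01 and the 1.5-fold threshold.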

Additional observations from a re-analysis of the deposited data

Results flagged for a closer look

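CD40, one of the PU.1 and Spi-B target genes, differed between the 2 mutants in the test of the difference itself, 0.81 higher in R58Q than in S136X cells on the log2 scale (adjusted p = 0.00634, edgeR, higher in 3 of 3 libraries), with the date in the column names not separable from R58Q.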

How the results depend on the processing

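Counts of passing genes were recomputed 240 times, of which 185 stayed within 1.5 times the value reported and 55 did not; the cause of those shifts was not tested. In S136X against vector, the 3 passing ETS genes of the 10 became 5 with total counts only, 7 with the replicate block, and 1 at an adjusted p under 0.01 or with the 1.5-fold threshold. The other ETS genes went from 0 to 1 with upper-quartile scaling, total counts only, no filter, all 9 libraries in one fit and the block. Partners went from 3 to 5 with the block and to 1 at an adjusted p under 0.01 or with 1.5-fold. PU.1 and Spi-B targets went from 7 to 11 with the block and to 4 at an adjusted p under 0.01. GABP targets went from 0 to 1 with DESeq2 or all 9 libraries and to 3 with the block. In R58Q against vector, the 5 passing ETS genes became 2 with 1.5-fold. Of the other ETS genes, EHF and ETV3L left aside, ETV4 and ETV5 were joined by ELK1, SPIB and ETV2 with the block. Neither ETV4 nor ETV5 passed at an adjusted p under 0.01. Partners went from 4 to 1 under either stricter threshold. PU.1 and Spi-B targets went from 7 to 11 with no filter or the block and to 4 with 1.5-fold. GABP targets went from 6 to 2 with upper-quartile scaling, 3 with total counts only, 10 with the block, and 0 under either stricter threshold. Between the mutants, the block gave 1 of the 10 genes, 3 partners, 6 PU.1 and Spi-B targets and 5 GABP targets. Of the other ETS genes, EHF, ETV3L and ETV7 left aside, it gave ETV4, ETV5 and ERF. With EHF, ETV3L and ETV7 left aside no other ETS gene passed with DESeq2 or no filter. PU.1 and Spi-B targets were 2 with DESeq2, no filter or all 9 libraries. The pairing block moved no other of these counts by over 1.5 times.

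Leaving out 1 library moved the passing ETS genes of the 10 between 1 and 5 in S136X and between 4 and 6 in R58Q cells. Other ETS genes were 0 in S136X cells. In R58Q cells, EHF and ETV3L left aside, ETV4 did not pass in 1 and ETV5 in 2 of the 6 fits. Partners were 1 to 3 in S136X and 1 to 4 in R58Q cells. In the same order PU.1 and Spi-B targets were 5 to 7 and 5 to 8, and GABP targets 0 to 1 and 0 to 8. Between the mutants these fits gave 0 throughout, except 0 to 1 PU.1 and Spi-B targets.

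Direction turned for values near 0. GABPA went to -0.01 with upper-quartile scaling and -0.026 with total counts only in S136X, to -0.013 and -0.006 in R58Q cells, and to -0.002 between the mutants with upper-quartile scaling. In that last setting ELF4 went to -0.000 and BCL6 to -0.008. Over the fits that left out a library, and on the log2 scale, GABPA went from -0.015 to 0.103 and GABPB1 from -0.059 to 0.067 in S136X cells, and GABPB2 from -0.106 to 0.031 in R58Q cells. Between the mutants ETS1 went from -0.135 to 0.087, ELF4 from -0.012 to 0.062, SPI1 from -0.125 to 0.116, GABPA from -0.042 to 0.074, IRF4 from -0.002 to 0.139 and BCL6 from -0.041 to 0.106. Depth limits what can be said of ETS2, EHF, ETV3L and the ETS genes with a few counts.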
